A study of Homo sapiens with 6 samples.

Results

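The G2/M and mitosis genes described here are 51 genes chosen by symbol for their roles in mitotic entry, the mitotic kinases, the spindle checkpoint, the kinetochore, mitotic kinesins, the spindle and cytokinesis, chromosome structure, and the anaphase-promoting complex. All 51 were among the 23368 gene symbols of the count table, and all 51 passed the filter on low counts that left 13322 genes. The data are RNA-seq libraries of MDA-MB231 cells, an established human line of triple-negative breast cancer. One group received a control siRNA (siControl), and the other groups received siL1 or siL2, which are different siRNAs against LSD1, the histone demethylase encoded by KDM1A. Each group had 2 libraries, and all cells grew in serum-containing medium and were transfected with the same reagent. The time after transfection, the siRNA sequences and the passage of the cells are not given in the sources used here. Whether the replicates of a group are separate cultures is not stated, and the p-values reflect the spread between these libraries alone, which may be technical. Levels are raw counts scaled to the library total (CPM), and changes are log2 fold changes ± SE from edgeR's quasi-likelihood test with Benjamini-Hochberg adjustment over 13322 genes, called at an adjusted p under 0.05.

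A dividing cell switches most of these genes on late in its cycle. CDK1 bound to cyclin B starts mitosis, the Aurora and Polo-like kinases build the spindle, and the checkpoint holds the anaphase-promoting complex (APC/C) back until every kinetochore is attached. The APC/C then marks securin and cyclin B for destruction, so that the chromatids separate. Many promoters of this class carry a cell cycle homology region, with the core TTTGAA, which the MuvB complexes bind, and CCAAT boxes, which NF-Y binds.

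Promoter sequences are shown for 6 members that differed in how they responded to the siRNAs and that all carry the TTTGAA core close to the start site. Each is the stretch of 120 bases that ends 1 base before the RefSeq transcription start site (GRCh38.p14), printed 5′ to 3′ on the strand of the gene. Capitals mark TTTGAA and CCAAT on either strand, so that they also read TTCAAA and ATTGG, and matches may run into each other.
CKS2, chr9:89311075-89311194 (plus strand): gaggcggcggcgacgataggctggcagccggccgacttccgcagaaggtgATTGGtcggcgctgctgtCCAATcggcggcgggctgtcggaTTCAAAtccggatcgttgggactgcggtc
PLK1, chr16:23678769-23678888 (plus strand): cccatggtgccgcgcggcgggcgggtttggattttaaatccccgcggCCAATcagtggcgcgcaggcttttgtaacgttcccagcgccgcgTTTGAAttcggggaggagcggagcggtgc
INCENP, chr11:62123891-62124010 (plus strand): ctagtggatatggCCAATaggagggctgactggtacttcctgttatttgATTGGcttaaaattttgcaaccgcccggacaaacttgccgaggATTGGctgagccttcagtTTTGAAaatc
BUB1B, chr15:40160949-40161068 (plus strand): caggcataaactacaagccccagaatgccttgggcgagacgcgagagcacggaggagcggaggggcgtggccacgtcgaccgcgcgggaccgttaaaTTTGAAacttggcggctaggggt
HMMR, chr5:163460512-163460631 (plus strand): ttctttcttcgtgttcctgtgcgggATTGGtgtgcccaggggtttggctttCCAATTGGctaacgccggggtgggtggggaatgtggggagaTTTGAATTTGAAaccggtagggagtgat
MKI67, chr10:128126424-128126543 (minus strand): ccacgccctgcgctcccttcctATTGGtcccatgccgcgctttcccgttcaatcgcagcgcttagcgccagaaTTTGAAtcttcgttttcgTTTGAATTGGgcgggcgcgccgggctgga
With the start site as position 0, the core began at position -29 in PLK1, in CKS2 (on the opposite strand) and in one of the copies in MKI67. BUB1B carried the core at position -23 and no CCAAT box in its window. HMMR carried 2 adjoining cores, at -28 and -22, and INCENP carried its core at -10 together with 3 CCAAT boxes.

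Of the 51 members, 44 had RefSeq promoter windows (250 bases before to 50 after the start site), in 58 windows. TTTGAA was found on either strand in a window of 33 of these 44 members (75%), against 18.2% of 27305 genes with windows and 13.8% of the 9318 tested genes with windows. CCAAT was found in 34 of 44 members (77.3%), against 39.7% of all genes with windows. Both motifs stood in 1 window in 25 of 44 members (56.8%), against 7.26% of all genes with windows. The core began 50 to 1 bases before the start site in 20 of 44 members (45.5%), against 3.22% of all genes with windows. Members with several windows were counted once in these shares.

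**Figure D1:**
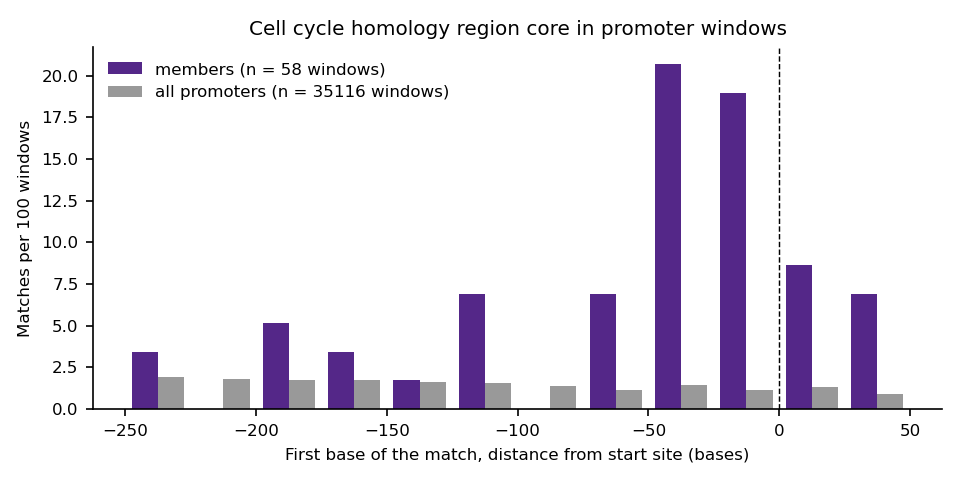
Matches to TTTGAA on either strand per 100 promoter windows (y axis) by distance of the first base of the match from the start site (x axis, bases, in bins of 25), for the 58 windows of the members and for all 35116 windows. The members had 20.7 matches per 100 windows from -50 to -26 and 19.0 from -25 to -1, where all windows had 1.45 and 1.17.

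Members with and without the core were both lower with siL1. With that siRNA, 22 of the 33 members with TTTGAA and all 11 of those without it were lower than in siControl, and the medians of log2 fold change were -0.25 and -0.32. With siL2 the medians were 0.03 and 0.00, with 4 higher and 7 lower among the 33, and 3 higher and 3 lower among the 11. Of all tested genes, 25.7% were lower with siL1, and 23.3% were lower and 22.6% higher with siL2, so that the counts with siL2 lie near the background. These are descriptions of a fixed window, and a missing match says only that these letters are not in it.

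KDM1A fell with both siRNAs, from a level of 158 and 165 CPM with siControl to one of 27.7 and 28.1 with siL1 and of 17.4 and 18.1 with siL2 (log2 fold change -2.53 ± 0.0538 and -3.19 ± 0.0567, adjusted p = 1.09e-11 and 2.16e-12). The libraries held 22047738 to 26765079 counts, and the lowest count of any member in any library was 77, for CDC26, against 478 for the other members. The 7 markers of the line (VIM, CD44, KRT18, FN1, AXL, MSN and CAV1) were all above 1 CPM in every group, summing to 8140 to 8950 CPM. Of the 4 luminal markers, ESR1 and PGR were at or near 0, while the group means were 49.0 to 57.0 CPM for ERBB2, and 2.68 with siControl, 5.16 with siL1 and 3.70 with siL2 for GATA3. Blood markers summed to 0.299 to 0.51 CPM. The 6 fibroblast markers summed to 6.14 to 7.44 CPM with siControl, 18.8 to 19.9 with siL1 and 11.8 to 13.2 with siL2, with DCN, LUM and COL1A2 at 0 in every library. The 4 endothelial markers summed to 1.95 to 2.29, 4.5 to 4.89 and 2.6 to 3.03 CPM in the same order. The part of these levels in the results was not tested. Replicate 2 read higher than replicate 1 for 45, 37 and 48 of the 51 members with siControl, siL1 and siL2. The median differences were 0.0786, 0.0422 and 0.0838 on the log2 scale. Leaving out siControl replicate 2 or siL2 replicate 1 unbalances the replicate numbers. The members' median log2 fold change with siL2 was then 0.049 and 0.040, against 0.010 with all libraries. Without siControl replicate 1 or siL2 replicate 2 it was -0.015 and -0.025, so its sign depended on single libraries. The part of these shifts in the calls lost in those runs was not tested.

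With siL1, 37 of 51 members (72.5%) fell and 2 rose, against 25.7% of all tested genes lower and 24.7% higher, or 50.4% in either direction. The largest falls were those of CDC26, INCENP, CDC25C and MKI67, and ANLN and CENPA were the 2 that rose. The median log2 fold change of the members was -0.27, over a range of -0.79 to 0.24, against -0.01 for all tested genes, and 46 of 51 values were negative. With siL2, 11 of 51 members (21.6%) fell and 8 (15.7%) rose, against 23.3% lower and 22.6% higher among all tested genes, or 45.8% in either direction. The median change with siL2 was 0.01, over a range of -0.28 to 1.02. In bulk RNA, fewer cells in G2 or mitosis and less of a transcript per such cell cannot be told apart.

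The changes with siL1 were mostly modest in size. At a log2 change of at least 0.32 in size, 17 members were lower and 0 higher with siL1, against 13.1% lower and 16.6% higher among all tested genes. With siL2, 0 were lower and 3 higher at that size, against 11.9% and 13.7%. The summed level of the 51 members was 11962 and 12366 CPM with siControl, 10308 and 10580 with siL1, and 12031 and 12671 CPM with siL2. Both siL1 libraries were below all 4 others, and the siL2 libraries overlapped those with siControl. For single genes, groups of 2 libraries often do not overlap. They did not for 88.2% of members with siL1 and 52.9% with siL2, against 74.7% and 72.9% of all tested genes. Between the siRNAs the shares were 86.3% and 73.3%. Groups that do not overlap, as given for genes below, are thus common in these data.

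**Figure D2:**
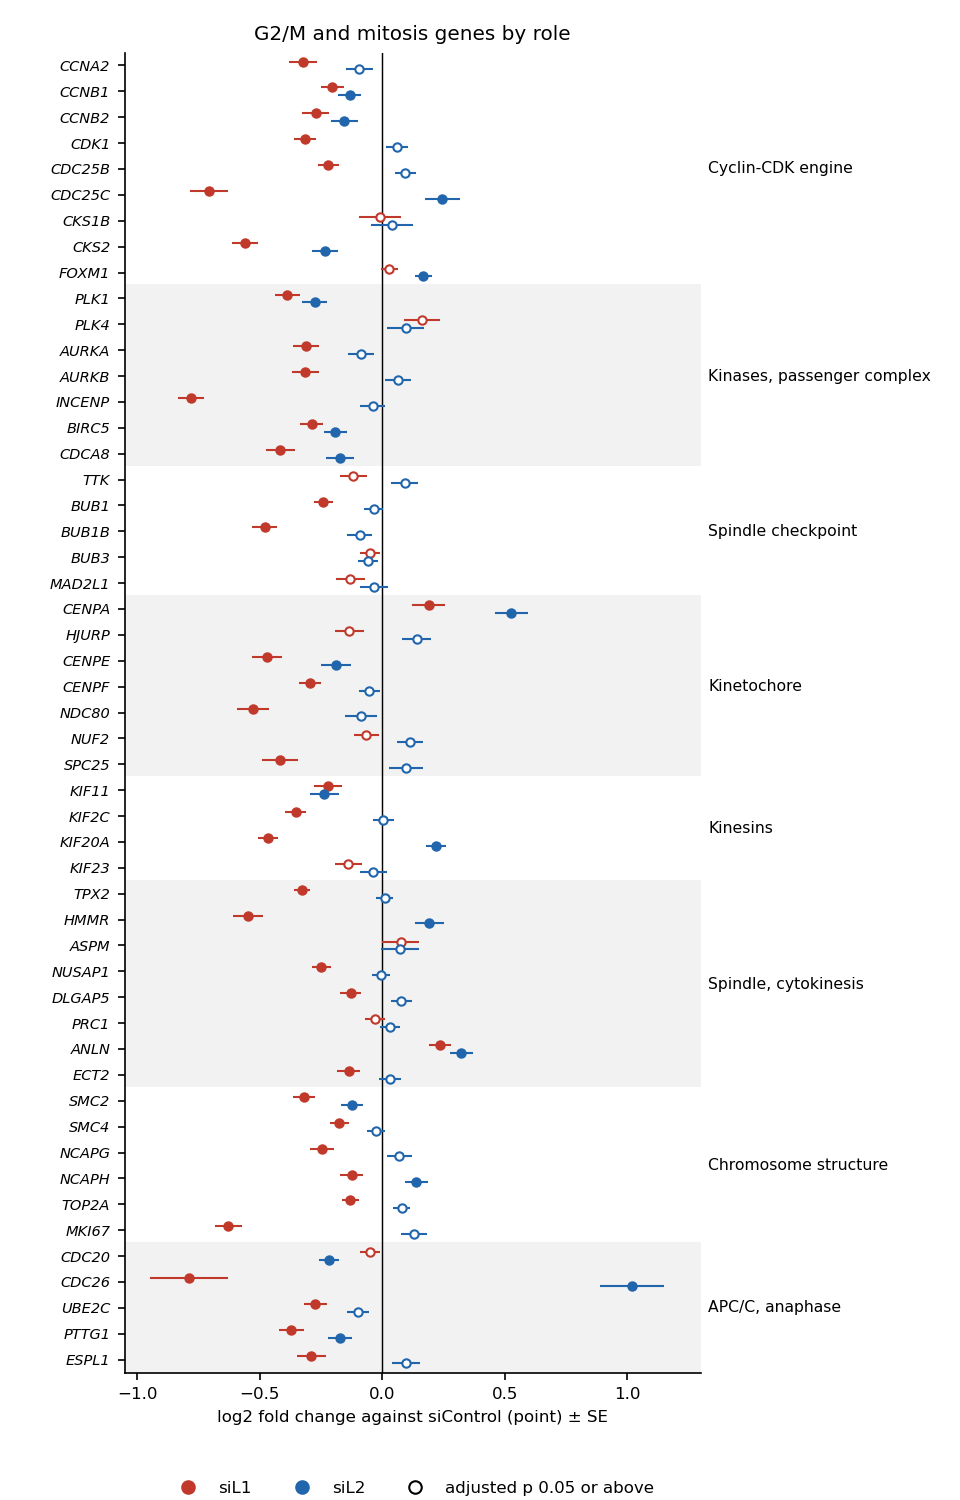
Log2 fold change against siControl ± SE (x axis) for each of the 51 members, grouped by role (y axis), with siL1 and siL2 as separate points, open where the adjusted p was 0.05 or above. With siL1, 46 of 51 points lie below 0, and with siL2 24 of 51.

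The siRNAs were also compared with each other, which tests the difference between them directly. Levels were higher with siL2 than with siL1 for 37 of 51 members (72.5%) and lower for 1, CDC20, against 23.2% higher and 23.7% lower among all tested genes, or 46.8% in either direction. At a log2 difference of at least 0.32 in size, 16 were higher with siL2 and 0 lower, against 12.6% and 13.8%. The median difference was 0.22 on the log2 scale, against 0.00 for all tested genes. The comparisons with siControl share the control libraries, and the comparison of siL2 with siL1 shares libraries with each of them, so they are not independent of one another.

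**Figure D3:**
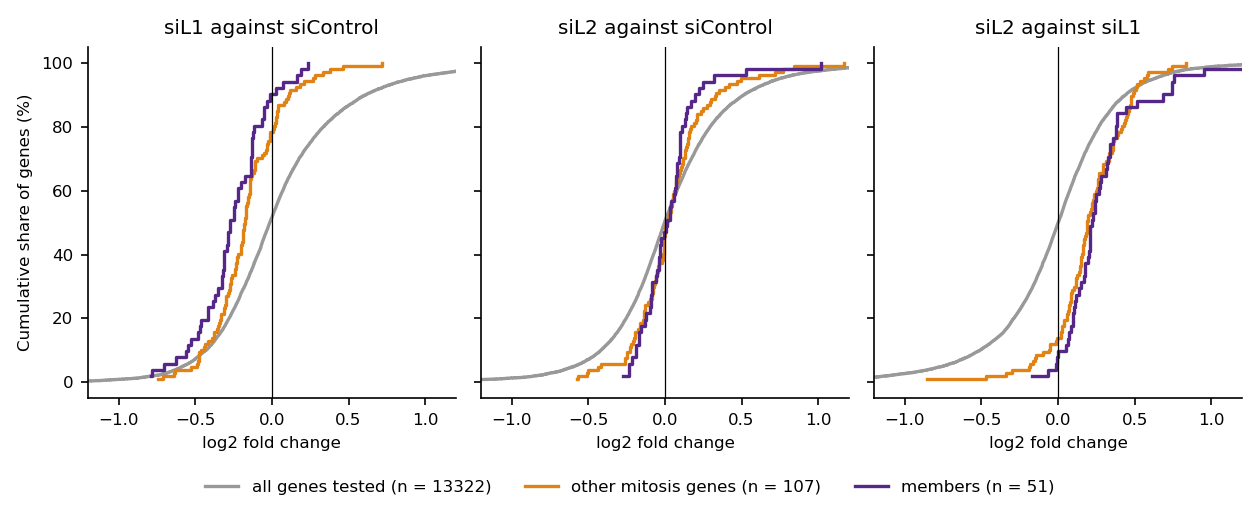
Cumulative share of genes (y axis, %) by log2 fold change (x axis, drawn from -1.2 to 1.2) in the 3 comparisons, for the 51 members, the 107 other mitosis genes and all 13322 tested genes. The members' median is -0.27 with siL1 and 0.01 with siL2 against siControl, and 0.22 for siL2 against siL1, where CDC26 (1.81) lies beyond the axis.

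By joint call, the members fell into a few patterns. The joint calls of all tested genes were not counted, so these numbers have no background share beside them. By single comparison, 25.7% of all tested genes were lower with siL1 and 23.3% with siL2. The most common pattern, with 22 members, was lower with siL1 and not called with siL2, and 10 members were lower with both siRNAs. Most of the siL2 calls among these 10 depended on single libraries. CENPA and ANLN were higher with both, and CDC25C, KIF20A, HMMR, NCAPH and CDC26 were lower with siL1 and higher with siL2. FOXM1 was called with siL2 only, as higher, and CDC20 with siL2 only, as lower. The 10 members with no call against siControl were CKS1B, PLK4, TTK, BUB3, MAD2L1, HJURP, NUF2, KIF23, ASPM and PRC1.

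Among the 9 genes of mitotic entry, 7 fell with siL1 and none rose (median -0.27). With siL2, 3 fell and 2 rose (median 0.04). The siL1 falls are 77.8%, against 25.7% of all tested genes. With siL2, 33.3% fell and 22.2% rose, near the 23.3% and 22.6% of all tested genes for a group of 9. CCNB1, the cyclin B that activates CDK1 at mitotic entry, stood at 443 and 483 CPM with siControl, 394 and 407 with siL1 and 410.2 and 437 with siL2. The siControl libraries were the highest, and the ranges of the groups did not overlap. The log2 fold change was -0.20 ± 0.0468 with siL1 (adjusted p = 0.00284) and -0.13 ± 0.0467 with siL2 (adjusted p = 0.0347), with 0.07 between the siRNAs (adjusted p = 0.232). The second call did not hold without siControl replicate 2 or without siL2 replicate 1. It was also lost under upper quartile scaling and under DESeq2's Wald test.

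CDK1, the kinase that drives the cell into mitosis, moved with siL1 only. Its level was 293 and 307 CPM with siControl, 237 and 243 with siL1 and 302 and 325 with siL2. The siL1 libraries lay below all others, and the siL2 range overlapped that of siControl. With siL1, CDK1 fell by 0.32 ± 0.0449 on the log2 scale (adjusted p = 7.91e-05), and the value with siL2 was 0.06 (adjusted p = 0.298).

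CDC25C, the phosphatase that activates CDK1 at the G2/M boundary, changed in opposite directions with the siRNAs. It was at 34.8 and 33.7 CPM with siControl, 22.5 and 19.4 with siL1 and 40.6 and 40.8 with siL2. The 3 groups did not overlap, with siL1 lowest and siL2 highest. The log2 fold change was -0.71 ± 0.0764 with siL1 (adjusted p = 8.03e-06) and 0.25 ± 0.0705 with siL2 (adjusted p = 0.012), the latter at an adjusted p of 0.0756 without siControl replicate 2. FAM53C, a gene on the opposite strand that overlaps CDC25C, fell with both siRNAs, by 0.20 and 0.18 on the log2 scale. The strand setting of the counting is not given, so shared reads cannot be followed.

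CKS2, a small protein that binds cyclin-dependent kinases, fell with both siRNAs. Its level was 179 and 181 CPM with siControl, 129.9 and 114 with siL1 and 156 and 152 with siL2. All siRNA libraries were below the controls, and siL1 was lowest. The log2 fold change was -0.56 ± 0.0534 with siL1 (adjusted p = 2.71e-06) and -0.23 ± 0.0525 with siL2 (adjusted p = 0.00288). Its paralog CKS1B was not called in any comparison, with values of -0.01 and 0.04, and 6 annotated pseudogenes are named after it.

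FOXM1, the transcription factor that activates many G2/M genes, was singled out after its values were seen. It stood at 369 and 379 CPM with siControl, 376 and 385 with siL1 and 420.3 and 422 with siL2. The siL1 range overlapped that of the controls, and both siL2 libraries were above them. The value with siL1 was 0.03 (adjusted p = 0.526), and FOXM1 rose by 0.17 ± 0.0353 with siL2 (adjusted p = 0.00169). The other entry genes were CCNA2, CCNB2 and CDC25B, which all fell with siL1, by 0.32, 0.27 and 0.22. Of these, CCNB2 fell with siL2, by 0.16, a call lost under upper quartile scaling and under DESeq2's Wald test.

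The 7 mitotic kinases and chromosomal passenger subunits gave 6 falls and no rise with siL1 (median -0.31). With siL2 they gave 3 falls and no rise (median -0.09). The falls are 85.7% and 42.9%, against 25.7% and 23.3% of all tested genes. PLK1, the Polo-like kinase of centrosome maturation and mitotic exit, stood at 235 and 255 CPM with siControl, 182 and 191 with siL1 and 194 and 212 with siL2. All 4 siRNA libraries were below both controls. PLK1 fell by 0.39 ± 0.0527 with siL1 (adjusted p = 5.67e-05) and by 0.28 ± 0.0524 with siL2 (adjusted p = 0.000829), and both calls held without any single library. The difference between the siRNAs was 0.11 (adjusted p = 0.105).

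The chromosomal passenger complex, which corrects faulty kinetochore attachments, is made of AURKB, INCENP, BIRC5 (survivin) and CDCA8 (borealin), and all of them fell with siL1. INCENP, its scaffold, was at 95.0 and 103 CPM with siControl, 58.3 and 56.4 with siL1 and 95.2 and 97.9 with siL2. The siL1 libraries were far below the rest, and the siL2 range lay inside that of the controls. INCENP fell by 0.78 ± 0.0526 with siL1 (adjusted p = 1.27e-07), with -0.04 for siL2 (adjusted p = 0.566) and 0.74 for siL2 over siL1 (adjusted p = 2.25e-07). AURKB, the kinase of the complex, was at 206 and 227 CPM with siControl, 168 and 179 with siL1 and 219 and 235 with siL2. The siL1 libraries were again lowest and the others overlapped. AURKB fell by 0.31 ± 0.0547 with siL1 (adjusted p = 0.000392), and the value with siL2 was 0.07 (adjusted p = 0.35).

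BIRC5 and CDCA8 fell with both siRNAs, by 0.29 and 0.42 with siL1 and by 0.19 and 0.17 with siL2. The siL2 calls of both were lost without siControl replicate 2 or siL2 replicate 1, with adjusted p up to 0.0662 for BIRC5 and 0.291 for CDCA8. That of CDCA8 was also lost under DESeq2's Wald test. AURKA, the spindle pole kinase, fell by 0.31 with siL1 and had a value of -0.09 with siL2 (adjusted p = 0.199). PLK4, the kinase of centriole duplication, was not called in any comparison, at 0.16 with siL1 (adjusted p = 0.0859) and 0.10 with siL2 (adjusted p = 0.316).

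Of the 5 spindle checkpoint genes, 2 fell with siL1 and none was called with siL2 (medians -0.13 and -0.03). The siL1 falls are 40% of the 5, against 25.7% of all tested genes. BUB1B encodes BUBR1, a part of the complex that inhibits the APC/C. Its level was 159 and 173.1 CPM with siControl, 119 and 119 with siL1 and 151 and 161 with siL2. The siL1 libraries nearly coincided and were below all others, and the siL2 range overlapped that of siControl. BUB1B fell by 0.48 ± 0.0511 with siL1 (adjusted p = 7.01e-06), the largest fall of the group, and was at -0.09 with siL2 (adjusted p = 0.153). BUB1, the kinase that recruits it, fell by 0.24 with siL1. TTK (MPS1), MAD2L1 and BUB3 had siL1 values of -0.12, -0.13 and -0.05 with adjusted p of 0.1, 0.0832 and 0.339.

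The kinetochore genes split. Of 7 members, 4 fell and 1 rose with siL1 (median -0.29), and 1 fell and 1 rose with siL2 (median 0.10). All 7 were higher with siL2 than with siL1, as were 23.2% of all tested genes. The siL1 falls are 57.1%, against 25.7% of all tested genes. With siL2, 14.3% fell and 14.3% rose, below the 23.3% and 22.6% of all tested genes. CENPA, the histone H3 variant that marks centromeres, stood at 36.7 and 40.2 CPM with siControl, 42.9 and 44.6 with siL1 and 53.5 and 57.8 with siL2. The groups did not overlap and the order was siControl, siL1, siL2. CENPA rose by 0.53 ± 0.0664 with siL2 (adjusted p = 3.32e-05) and by 0.19 ± 0.0681 with siL1 (adjusted p = 0.0339). The siL1 call was lost without siControl replicate 1 or without either siL1 library, with an adjusted p up to 0.237.

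NDC80, the microtubule-binding subunit that names its complex, was at 135 and 149.8 CPM with siControl, 97.8 and 98.9 with siL1 and 125 and 144 with siL2. The siL1 libraries were the lowest and the siL2 range overlapped the controls. NDC80 fell by 0.53 ± 0.0661 with siL1 (adjusted p = 2.82e-05) and was at -0.09 with siL2 (adjusted p = 0.302). Its partner SPC25 was at 46.4 and 50.965 CPM with siControl, 34.1 and 38.6 with siL1 and 51.9 and 52.7 with siL2. SPC25 fell by 0.42 with siL1 (adjusted p = 0.000391) and was at 0.10 with siL2 (adjusted p = 0.277), with siL1 lowest and siL2 just above the controls. NUF2, which pairs with NDC80 in the complex, was not called with siL1 (-0.06, adjusted p = 0.336) or with siL2 (0.11, adjusted p = 0.0921).

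CENPE, the kinesin that moves chromosomes to the spindle equator, was at 182 and 190.0 CPM with siControl, 127 and 141 with siL1 and 155 and 172.7 with siL2. The groups did not overlap, with siL2 between siL1 and siControl. CENPE fell by 0.47 with siL1 (adjusted p = 3.8e-05) and by 0.19 with siL2 (adjusted p = 0.022), the latter at up to 0.202 without siControl replicate 2 or siL2 replicate 1. CENPF fell by 0.29 with siL1, and HJURP, the chaperone that loads CENPA, was at -0.13 with siL1 (adjusted p = 0.0796) and 0.14 with siL2 (adjusted p = 0.0684).

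**Figure D4:**
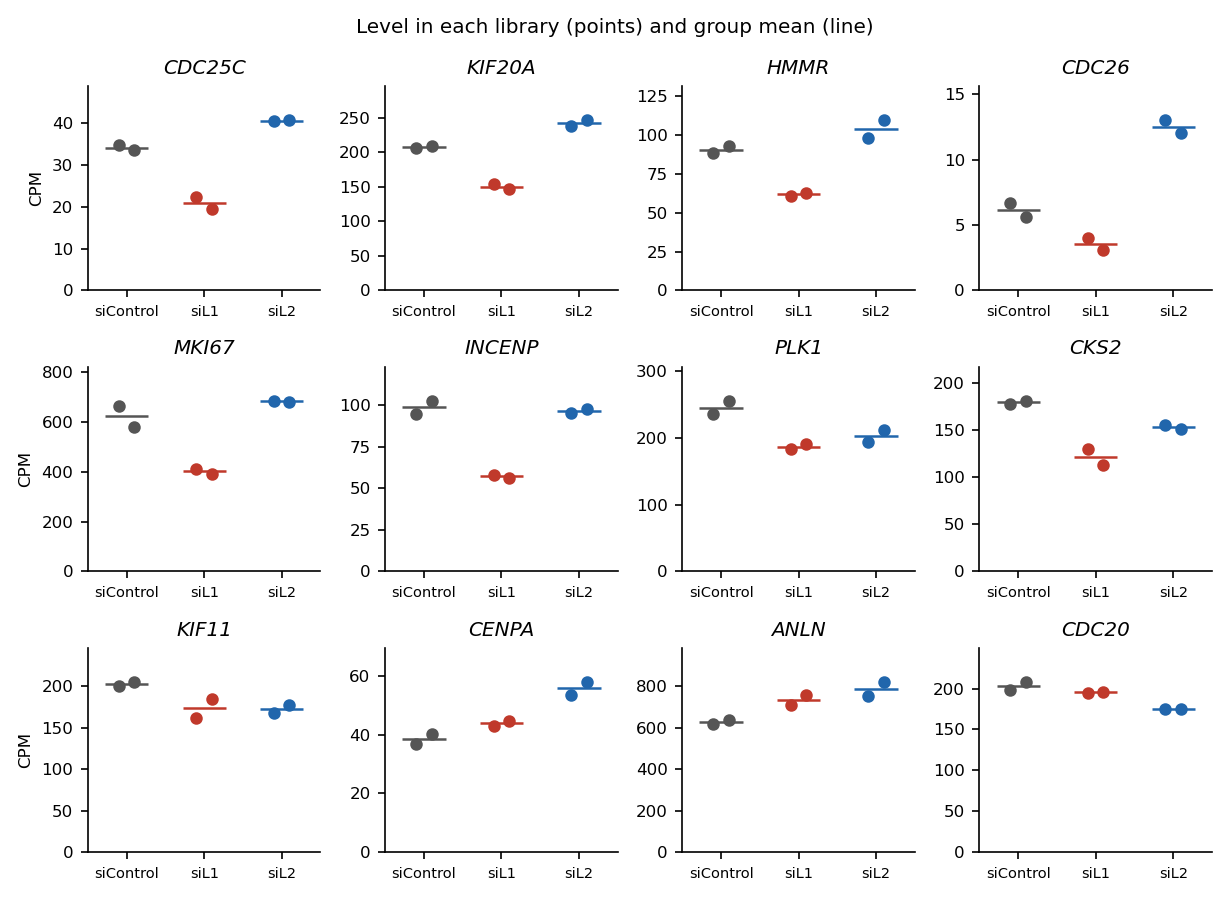
CPM in each library (points) and the mean of each group (line) for members described in the text, with siControl, siL1 and siL2 on the x axis and a y axis that starts at 0. CDC25C, KIF20A, HMMR and CDC26 are lowest with siL1 and highest with siL2, while ANLN and CENPA are lowest with siControl.

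Of the 4 mitotic kinesins counted apart from CENPE, 3 fell with siL1 (median -0.29), and 1 rose and 1 fell with siL2 (median -0.02). The siL1 falls are 75% of the 4, against 25.7% of all tested genes. With siL2, 25% fell and 25% rose, near the 23.3% and 22.6% of all tested genes. KIF11 (Eg5), which pushes the spindle poles apart, fell with both siRNAs. It was at 201 and 205 CPM with siControl, 162 and 185 with siL1 and 168 and 178 with siL2. All siRNA libraries were below the controls, and the siRNA groups overlapped. The log2 fold change was -0.22 ± 0.0576 with siL1 (adjusted p = 0.00649, and 0.0772 without siL1 replicate 1) and -0.24 ± 0.0575 with siL2 (adjusted p = 0.00468). The difference between the siRNAs was -0.02 ± 0.0577 (adjusted p = 0.848).

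KIF20A (MKLP2), a kinesin of cytokinesis, changed in opposite directions. Its level was 207 and 209 CPM with siControl, 154 and 146 with siL1 and 238 and 247 with siL2. No groups overlapped, with siL1 lowest and siL2 highest. KIF20A fell by 0.47 ± 0.0409 with siL1 (adjusted p = 1.36e-06) and rose by 0.22 ± 0.04 with siL2 (adjusted p = 0.00063), and both calls held without any single library. BRD8 and CDC23 overlap KIF20A on the opposite strand. CDC23 rose with both siRNAs, by 0.33 with siL1 and 0.77 with siL2, and BRD8 fell by 0.51 with siL1 and was at -0.11 with siL2 (adjusted p = 0.105). The part of shared reads was not tested. KIF2C, which depolymerizes microtubules, fell by 0.35 with siL1 and was at 0.00 with siL2 (adjusted p = 0.952), and KIF23 was at -0.14 with siL1 (adjusted p = 0.0525).

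The 8 spindle and cytokinesis genes gave 5 falls and 1 rise with siL1 (median -0.13). With siL2 they gave no fall and 2 rises (median 0.05). The siL1 falls are 62.5%, against 25.7% of all tested genes. The siL2 rises are 25%, near the 22.6% of all tested genes, of which 23.3% fell. HMMR, a spindle-associated receptor for hyaluronan, stood at 88.4 and 93.0 CPM with siControl, 60.7 and 63.0 with siL1 and 98.3 and 109.7 with siL2. The groups did not overlap, with siL1 lowest. HMMR fell by 0.55 ± 0.0608 with siL1 (adjusted p = 1e-05) and rose by 0.19 ± 0.0582 with siL2 (adjusted p = 0.0161). The rise was lost without siControl replicate 1 or siL2 replicate 2, with an adjusted p up to 0.208, and the difference between the siRNAs, 0.74 ± 0.0599, held without any single library (adjusted p = 7.83e-07).

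ANLN (anillin), the scaffold of the contractile ring, rose with both siRNAs, against the direction of most members with siL1. It was at 617 and 634 CPM with siControl, 709.8 and 758 with siL1 and 750.4 and 818 with siL2. Every siRNA library was above both controls, and the siRNA groups overlapped. The log2 fold change was 0.24 ± 0.0465 with siL1 (adjusted p = 0.000979) and 0.32 ± 0.0464 with siL2 (adjusted p = 9.91e-05). TPX2, the activator of AURKA, fell by 0.33 with siL1 and was at 0.01 with siL2 (adjusted p = 0.828). NUSAP1 fell by 0.25 with siL1, and DLGAP5 and ECT2 by 0.13 and 0.14. The calls of DLGAP5 and ECT2 were lost without siControl replicate 2 or siL1 replicate 1, and that of DLGAP5 also without siL1 replicate 2, with adjusted p up to 0.203 and 0.202. Both were also lost under upper quartile scaling (adjusted p = 0.0542 and 0.0567) and under DESeq2's Wald test (0.0682 and 0.0598). ASPM and PRC1 were not called in any comparison, with values between -0.03 and 0.08 against siControl.

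All 6 genes of chromosome structure fell with siL1 (median -0.21), while 1 rose and 1 fell with siL2 (median 0.07). Of all tested genes, 25.7% fell with siL1. With siL2, 16.7% fell and 16.7% rose, against 23.3% and 22.6% of all tested genes. MKI67 encodes Ki-67, the coat protein of mitotic chromosomes that serves as a marker of proliferation. Its level was 665 and 578 CPM with siControl, 412 and 390.1 with siL1 and 683 and 681 with siL2. Here replicate 1 of the control was the higher one, the siL1 libraries were below all others, and the siL2 libraries were above both controls. MKI67 fell by 0.63 ± 0.0538 with siL1 (adjusted p = 1.09e-06) and was at 0.13 ± 0.0531 with siL2 (adjusted p = 0.0615), which passed the threshold under DESeq2's size factors and under upper quartile scaling.

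TOP2A, the topoisomerase that untangles sister chromatids, was at 628 and 633 CPM with siControl, 566 and 583 with siL1 and 662 and 674 with siL2. The groups did not overlap, with siL1 lowest and siL2 highest. TOP2A fell by 0.13 with siL1 (adjusted p = 0.00613, and 0.0553 without siL1 replicate 1) and was at 0.08 with siL2 (adjusted p = 0.0716). The remaining members of this group belong to condensin, the ring complex that compacts mitotic chromosomes. SMC2, a subunit of both condensins, was at 225 and 231 CPM with siControl, 178 and 186 with siL1 and 204 and 216 with siL2. Every siRNA library was below the controls, with siL1 lowest. SMC2 fell by 0.32 with siL1 (adjusted p = 6.99e-05) and by 0.12 with siL2 (adjusted p = 0.0364). The siL2 call was lost without either siControl library or siL2 replicate 1. It was also lost under upper quartile scaling and under DESeq2's Wald test.

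NCAPH, the kleisin of condensin I, was at 162 and 173.4 CPM with siControl, 151 and 155 with siL1 and 181 and 189.9 with siL2. The groups did not overlap, with siL1 lowest and siL2 highest. NCAPH fell by 0.12 with siL1 (adjusted p = 0.0427) and rose by 0.14 with siL2 (adjusted p = 0.0258). Both calls depended on single libraries. The siL1 call was lost without siControl replicate 2 or either siL1 library with adjusted p up to 0.292. It was also lost under DESeq2's size factors, upper quartile scaling, DESeq2's Wald test and with only the groups compared, with adjusted p of 0.0613, 0.0896, 0.126 and 0.0566. The siL2 call was lost without siControl replicate 1 or siL2 replicate 2, with adjusted p up to 0.208. SMC4 and NCAPG fell by 0.17 and 0.25 with siL1 and were at -0.02 and 0.07 with siL2 (adjusted p = 0.624 and 0.275).

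Of the 5 genes of the APC/C and of anaphase, 4 fell with siL1 (median -0.29). With siL2, 2 fell and 1 rose (median -0.10). The siL1 falls are 80%, against 25.7% of all tested genes. With siL2, 40% fell and 20% rose, against 23.3% and 22.6% of all tested genes. CDC20, the coactivator that the checkpoint restrains, was the member lower with siL2 than with siL1. It stood at 198 and 208 CPM with siControl, 195 and 196 with siL1 and 175 and 175 with siL2. The siL2 libraries were below all others, and siL1 lay just under the controls. CDC20 fell by 0.22 ± 0.0397 with siL2 (adjusted p = 0.000643), was at -0.05 with siL1 (adjusted p = 0.323), and differed by -0.17 between the siRNAs (adjusted p = 0.00389).

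CDC26, a small subunit of the APC/C, showed the largest change of any member with siL2, and it had by far the lowest counts of the members. Its level was 6.71 and 5.63 CPM with siControl, 3.998 and 3.12 with siL1 and 13.04 and 12.0 with siL2. The groups did not overlap, with siL1 lowest and siL2 highest. CDC26 fell by 0.79 ± 0.161 with siL1 (adjusted p = 0.00125) and rose by 1.02 ± 0.131 with siL2 (adjusted p = 3.89e-05), and both calls held without any single library. PRPF4 and SLC31A1 overlap CDC26 on the opposite strand at far higher levels. PRPF4 fell by 0.28 with siL1 and 0.36 with siL2, and SLC31A1 was at -0.00 and -0.05 (adjusted p = 0.953 and 0.476).

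UBE2C, the ubiquitin-conjugating enzyme of the APC/C, fell by 0.27 with siL1 and was at -0.10 with siL2 (adjusted p = 0.0988). PTTG1 (securin), the inhibitor of separase, fell with both siRNAs, by 0.37 with siL1 and by 0.17 with siL2 (adjusted p = 5.1e-05 and 0.012). The siL2 call was lost without siControl replicate 1 or siL2 replicate 1, at an adjusted p up to 0.126. ESPL1, separase itself, fell by 0.29 with siL1 and was at 0.10 with siL2 (adjusted p = 0.177).

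**Figure D5:**
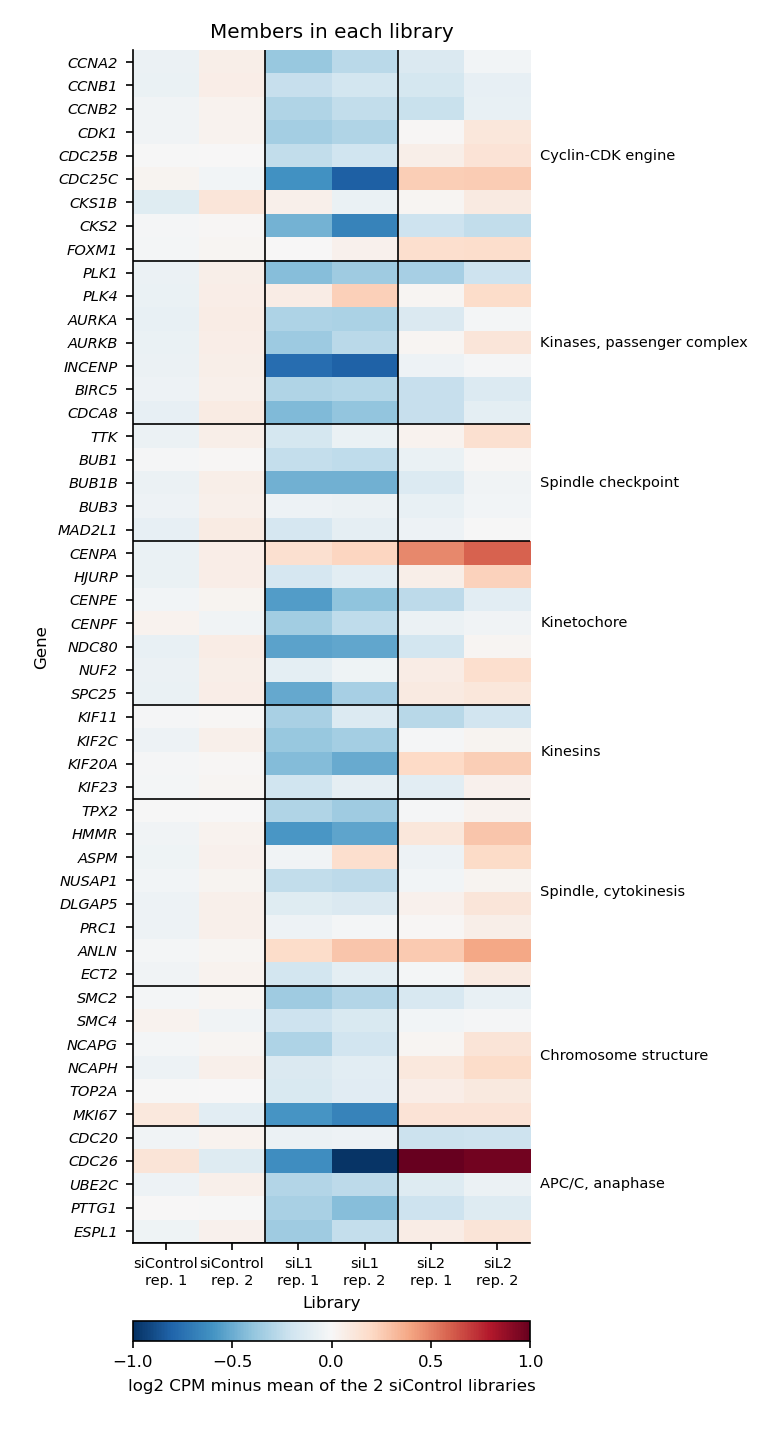
Log2 CPM of each member minus the mean of the siControl libraries (colour, limited to -1 and 1) in each of the 6 libraries (columns), with the 51 members by role (rows). The siL1 columns are below the control mean for most members in both libraries, with medians of -0.301 and -0.251, while those of siL2 are -0.0176 and 0.041, and CDC26 exceeds the limit in siL2 replicate 1 (1.08).

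Without any 1 of the 6 libraries, 32 of the 37 falls with siL1 held in every such run, as did the rise of ANLN. With siL2, 4 of the 11 falls held in every run, those of CKS2, PLK1, KIF11 and CDC20, and 5 of the 8 rises, those of FOXM1, CENPA, KIF20A, ANLN and CDC26. The members' median log2 fold change with siL2 was 0.040 without siL2 replicate 1 and 0.049 without siControl replicate 2. All genes tested in those runs had medians of -0.00504 and -0.00165. Of the 37 members higher with siL2 than with siL1, 29 held in every run. CCNB2 was among those lost with siL2, at an adjusted p up to 0.342 without siControl replicate 2 or siL2 replicate 1. Those lost between the siRNAs were CCNA2, FOXM1, TTK, NUF2, ECT2, SMC4, UBE2C and PTTG1, at adjusted p between 0.0507 and 0.119 at their highest, in runs without a siL1 library or without siL2 replicate 2.

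A list of 107 other genes of mitosis was counted in the same way. It was drawn up from general knowledge but with earlier results of these data known, so it is not an independent check. With siL1, 62 fell and 7 rose (median -0.17), with siL2 23 fell and 27 rose (median 0.02), and 67 were higher and 7 lower with siL2 than with siL1 (median 0.19). The shares were 57.9% lower and 6.54% higher with siL1, where all tested genes had 25.7% and 24.7%. With siL2 they were 21.5% lower and 25.2% higher, near the 23.3% and 22.6% of all tested genes. For siL2 over siL1 they were 62.6% higher and 6.54% lower, against 23.2% and 23.7% of all tested genes. Among 20 further spindle, centriole and cytokinesis genes, 17 fell with siL1 and none rose. The largest falls with siL1 were those of SHCBP1, which binds the central spindle, at -0.74, FAM83D at -0.71, ARHGAP11A at -0.64 and CCDC99 (spindly) at -0.63. CCDC99 fell with siL2 too, by 0.57.

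Of 29 further centromere and kinetochore genes, 12 fell and 3 rose with siL1 (median -0.14). With siL2, 6 fell and 13 rose (median 0.11). These are 41.4% and 10.3% with siL1, against 25.7% and 24.7% of all tested genes. With siL2 they are 20.7% and 44.8%, against 23.3% and 22.6%. CENPK, a subunit of the constitutive centromere network, rose by 0.72 with siL1 and by 1.17 with siL2, and CENPQ of the same network by 0.38 and 0.84. MIS18A rose by 0.47 with siL1 and by 0.61 with siL2. CENPH rose by 0.72 with siL2 and was at 0.16 with siL1 (adjusted p = 0.194). KNTC1 and CENPP were higher with siL2 than with siL1 by 0.74 and 0.58, and both were called lower with siL1 and higher with siL2. MIS12, a kinetochore subunit, differed by -0.30 for siL2 over siL1.

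Among the 16 further genes of the APC/C, 8 fell and 3 rose with siL1, and 5 fell and 3 rose with siL2. With siL2 these are 31.2% and 18.8% of the 16, close to the 23.3% and 22.6% of all tested genes. CDC23, a subunit of its core, rose with both. ANAPC13, ANAPC1 and UBE2S fell with siL2, by 0.57, 0.50 and 0.51. ANAPC1 and UBE2S fell with siL1 too, by 0.31 and 0.17, while ANAPC13 rose by 0.28 with siL1 and differed between the siRNAs by -0.86. Of 12 cohesin genes 8 fell and 1 rose with siL1. With the same siRNA, 6 of 8 further kinesins and 3 of 4 further condensin subunits fell. So did 7 of 15 further regulators of mitotic entry and 1 of 3 further checkpoint genes. With siL1, 25.7% of all tested genes were lower and 24.7% higher. LIN9, a MuvB subunit, differed by -0.47 for siL2 over siL1.

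In the authors' deposited table, 32 members were lower and 1 higher with siL1 at an adjusted p under 0.05, and all 32 were lower here as well. Those calls come from the same counts, so they are not a separate check. The calls of all genes in that table were not counted, so its numbers of members have no background share beside them. The same table had 6 members lower and 6 higher with siL2, namely CKS2, PLK1, BIRC5, KIF11, CDC20 and PTTG1 lower, and CDC25C, FOXM1, CENPA, KIF20A, ANLN and CDC26 higher. In the authors' deposited table the adjusted p of HMMR with siL2 was 0.152, that of CENPA with siL1 was 0.0873, and those of NCAPH were 0.146 with siL1 and 0.108 with siL2.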

How the data were processed

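RNA-seq libraries of MDA-MB231 cells, 2 each with siControl, siL1 and siL2, were aligned by the authors with TopHat 1.3.3 to hg19, with HTSeq and DESeq also named, per the submitters' processing notes. The authors deposited 1 table with the raw count per gene symbol and library, their fold change (a linear ratio, siRNA over siControl) and their adjusted p-value. Strand setting and annotation release are not given in the sources used here.

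Counts were analysed with edgeR 4.0.16 in R 4.3.3. Of 23368 symbols, filterByExpr by group kept 13322, which were scaled by TMM and fitted over all 6 libraries by group, with no other term (3 residual degrees of freedom). Each comparison used the two-sided quasi-likelihood test with Benjamini-Hochberg adjustment over the 13322 genes and a threshold of 0.05. SEs of the log2 fold change were computed as its size divided by the square root of the quasi-likelihood F statistic. The common biological coefficient of variation was 3.72%. Replicates of a group differed by more than counting noise (chi-square per degree of freedom 3.11 to 3.30), so none was counted as a repeat.

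The members and gene lists were chosen with earlier results of these data known. Values in every library are given for KDM1A, for CCNB1, CDK1, PLK1, AURKB, MKI67 and TOP2A, for the members of each role with the largest rise and fall past the threshold in each comparison, and for members called in opposite directions. Of the 107 other mitosis genes, all were tested, 9 under an older symbol, and the 4 largest rises and falls per comparison are named. Promoter windows of 300 bases came from RefSeq (GRCh38.p14) by symbol. FOXM1, AURKA, BIRC5, TTK, BUB3, TPX2 and UBE2C were not matched. Overlapping genes and pseudogenes came from GENCODE 29: 11 members have pseudogenes named after them and 11 are overlapped, on the opposite strand, by another protein-coding gene of the count table. Alternatives used DESeq2 1.42.0 (its size factors or its Wald test), upper quartile scaling, no filter, a replicate block, only the groups compared, a minimum log2 change of 0.32, and the omission of each library.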

Additional observations from a re-analysis of the deposited data

Results flagged for a closer look

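5 members moved in opposite directions with the siRNAs, past the threshold against siControl in both cases. They were picked for these opposite calls, so a difference between the siRNAs in the same libraries adds no separate support. The differences below are given with edgeR's quasi-likelihood test and Benjamini-Hochberg adjustment. CDC26, the APC/C subunit, was higher with siL2 than with siL1 by 1.81 ± 0.143 on the log2 scale (adjusted p = 6.31e-07). CDC25C, the phosphatase of mitotic entry, was higher by 0.95 ± 0.0743 (adjusted p = 5.74e-07). HMMR was higher by 0.74 ± 0.0599 (adjusted p = 7.83e-07) and KIF20A by 0.68 ± 0.0406 (adjusted p = 5.6e-08). NCAPH was higher by 0.26 ± 0.0465 (adjusted p = 0.000495). In each of the 5, both siL2 libraries were above both siL1 libraries, with those of siControl in between, an order that the choice favours. The siL2 rises of CDC25C, HMMR and NCAPH and the siL1 fall of NCAPH each depended on single libraries. In the authors' deposited table, HMMR with siL2 and NCAPH with either siRNA did not pass 0.05. CDC26 had by far the lowest counts of the members, and genes at far higher levels overlap it on the opposite strand.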

How the results depend on the processing

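The falls with siL1 and the excess of siL2 over siL1 kept their direction and their calls for most members under each other scaling, filter, test or set of libraries, but not at the minimum size of change given below. Of the 39 members called with siL1, 38 were also called under DESeq2's size factors, 36 under upper quartile scaling, 35 under DESeq2's Wald test, 39 with no count filter and 38 with only the groups compared, in the same direction. Between the siRNAs all 38 calls were kept under each of these settings. With siL2, 19, 16, 15, 19 and 19 of 19 calls were kept in the same order. The split with siL2 was 8 higher and 11 lower, against 13 higher and 8 lower under upper quartile scaling and 7 lower under DESeq2's Wald test, under which 1 member was higher with siL1. All tested genes numbered 3006 higher and 3100 lower with siL2, 3248 and 2823 under upper quartile scaling, and 2408 and 2329 under the Wald test. With upper quartile scaling the siL2 median of all tested genes moved from -0.0036 to 0.0163, and that of the members from 0.010 to 0.030. At a minimum log2 change of 0.32, members numbered 0 higher and 17 lower with siL1, 3 higher and 0 lower with siL2, and 16 higher and 0 lower for siL2 over siL1. All tested genes then numbered 1743 lower with siL1, 1823 higher and 1582 lower with siL2, and 1675 higher and 1843 lower between the siRNAs. The cause of these shifts was not tested, apart from the fold minimum, which only removes calls. MKI67 with siL2 was called under DESeq2's size factors, upper quartile scaling, no count filter and the replicate block.

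Without 1 library at a time, members higher with siL1 numbered 1 to 2 and lower 32 to 40. Those higher with siL2 numbered 6 to 10 and lower 4 to 13. Members higher with siL2 than with siL1 numbered 30 to 41 and lower 1 each time.

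The labels do not say that equal replicate numbers pair the libraries, and with 2 numbers this could not be settled: the deviations of same-numbered libraries from their group means correlated at 0.141, 0.198 and 0.133 over 13322 genes. With the replicate block, members higher with siL2 numbered 16 and lower 16, against 8 and 11 without it, and the block added 5 calls with siL1, 13 with siL2 and 8 between the siRNAs and removed none. In shares, 31.4% of the members were higher and 31.4% lower with siL2 under the block, against 28% and 29.2% of all tested genes, so 32 of 51 members were called with siL2 under the block and 19 without it.

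The sign turned only for members that were not called in that comparison. CKS1B with siL1 was at 0.015 under upper quartile scaling, at 0.00071 under DESeq2's Wald test and at 0.00021 with only the groups compared. With siL2, KIF2C was at -0.0016 with no count filter, and NUSAP1 was at 0.0027 under DESeq2's size factors and its Wald test and at 0.016 under upper quartile scaling. ASPM between the siRNAs was at 0.0013 with no count filter. Without 1 library at a time, the log2 values of such members crossed 0. For siL1 against siControl, the ranges were CKS1B -0.12 to 0.11, BUB3 -0.10 to 0.0018, ASPM -0.035 to 0.17 and PRC1 -0.083 to 0.019. For siL2 against siControl, the ranges were CKS1B -0.071 to 0.17, AURKB -0.0027 to 0.13, INCENP -0.093 to 0.017, BUB1 -0.075 to 0.0071, MAD2L1 -0.11 to 0.049, NDC80 -0.19 to 0.013, KIF2C -0.043 to 0.051, KIF23 -0.12 to 0.040, TPX2 -0.017 to 0.037, ASPM -0.057 to 0.19, NUSAP1 -0.034 to 0.025, PRC1 -0.020 to 0.082, ECT2 -0.025 to 0.088 and SMC4 -0.060 to 0.0092. For siL2 against siL1, the ranges were PLK4 -0.15 to 0.024, BUB3 -0.032 to 0.019, KIF11 -0.11 to 0.089 and ASPM -0.13 to 0.12.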
